A study of Homo sapiens with 8 samples.

Results

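The transglutaminases are the enzymes that join proteins to one another through bonds between glutamine and lysine side chains. The members described here were chosen by name as TGM1 to TGM7, and all 7 were found among the 63241 gene rows of the deposited count table, of which 62666 Ensembl identifiers matched a symbol. The table covers 8 RNA-seq libraries whose labels name HSC3, a human cell line from an oral squamous cell carcinoma. In the knockdown group, 4 libraries by label, cells received siRNA to COL1A1, the gene of a type I collagen chain, and in the control group, also 4 libraries, the siRNA labelled si-NC. Both groups got 100 pmol of siRNA with a lipid reagent for 48 h. The knockdown was transient and in 1 line, and the labels do not state that the 4 libraries per group are separate cultures. The p-values therefore measure only the spread between these libraries, which is not shown to be that of separate cultures.

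The family divides by place of action. TGM1, TGM3 and TGM5 act in stratified epithelia, where they fix involucrin, loricrin, small proline-rich proteins and plakins into the cornified envelope, the protein shell that replaces the plasma membrane of a dying keratinocyte. TGM2, tissue transglutaminase, is made by endothelial cells, smooth muscle, fibroblasts and macrophages, binds GTP, and crosslinks fibronectin and other matrix proteins outside the cell. TGM4 is the prostate enzyme, TGM6 is known from the nervous system, and the role of TGM7 is little studied.

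Several libraries stood apart in ways their labels do not give. Total counts ran from 30684584 to 60200909 in the libraries labelled knockdown and from 32242870 to 61795990 in those labelled control. A list of 9 skeletal muscle genes, led by TTN and NEB, took 0.00404% to 4.39% of counts under the knockdown label and 0.00304% to 13.99% under the control label. A list of 8 salivary gland genes, led by LCN1 and MUC5B in mean CPM, took 9.65% in knockdown 2 and 12.37% in control 1, and under 1% in the other 6 libraries. These shares came from different genes. LCN1 stood at 0.391 CPM in knockdown 2 and 66024 CPM in control 1, and MUC5B at 60244 and 3948 CPM. Knockdown 2, knockdown 4, control 1 and control 3 were the 4 libraries with over 1% in either list. KRT5, a basal keratin of squamous epithelium, ran from 274.1 to 19772 CPM (counts scaled to a common library total) in knockdown and from 108.9 to 16795 CPM in control, lowest in each group in knockdown 2 and control 1. COL1A1, the siRNA target, stood at 367.6, 122.7, 300.9 and 155 CPM in knockdown 1 to 4, against 88.9, 8182, 475.9 and 689.5 CPM in control 1 to 4. The groups overlapped for the target, so both are named by their labels throughout. A single carcinoma line is not known to make skeletal muscle, salivary gland, endothelial or leukocyte transcripts, and whether these libraries hold what their labels say was not tested; every knockdown and control value carries this limit. In bulk RNA, fewer cells of a type and less RNA per cell cannot be told apart, and this applies to every level below.

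TGM1, the membrane-anchored enzyme of keratinocytes, was the most abundant envelope member. Its gene lies on chromosome 14 from 24249114 to 24264432 (GRCh38, minus strand). It stood at 928.5, 4.63, 1182 and 839.4 CPM in knockdown 1 to 4, against 1.09, 108.1, 98.8 and 54.1 CPM in control 1 to 4. Knockdown 1, 3 and 4 lay above every control library, while knockdown 2 lay below 3 of the 4, so the groups overlapped. In knockdown 3 TGM1 was the 57th most abundant of all gene rows, and in control 1 it was at place 15391. Knockdown averaged 738.5 ± 510.3 CPM and control 65.5 ± 49 CPM (SD, 4 libraries each). Knockdown over control, edgeR fitted a log2 fold change of 3.90 ± 1.56 (SE), whose p was 0.0339 before adjustment and 0.981 after Benjamini-Hochberg adjustment over the 21192 genes tested.

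TGM5, a keratinocyte enzyme whose loss causes skin peeling at the hands and feet, was also highest in knockdown 1, 3 and 4, at a lower level. Over the other libraries it differed from TGM1, being lowest in control 4 where TGM1 was lowest in control 1. It lies on chromosome 15 from 43232595 to 43266857, on the minus strand. It stood at 30.8, 3.1, 63.4 and 37.8 CPM in knockdown 1 to 4, against 1.06, 3.59, 2.92 and 0.423 CPM in control 1 to 4. Knockdown 2 lay below control 2, and the other knockdown libraries lay far above every control library. Knockdown averaged 33.8 ± 24.8 CPM and control 2 ± 1.5 CPM (SD, 4 libraries each). The fit gave TGM5 a log2 fold change of 4.44 ± 1.03 (SE); its edgeR p of 0.00204 was the 26th smallest of all genes tested, and 0.981 once adjusted. DESeq2 called TGM5 (adjusted p = 0.00122), where limma-voom did not (adjusted p = 1.00).

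TGM3, an envelope enzyme that needs cleavage by a protease to become active, was at a low level, with 0 counts in 4 of the 8 libraries. Its counts were 135, 0, 25 and 298 in knockdown 1 to 4, or 2.24, 0, 0.686 and 8.17 CPM, against 0, 0, 16 and 0 in control 1 to 4, with 0.496 CPM in control 3. At 0 counts the limit that a count of 0 allows, 3 counts in the library, ran from 0.0486 to 0.0978 CPM. The 3 knockdown libraries with reads lay above control 3, and knockdown 2 was at 0 with 3 of the controls. The Wilson 95% interval of knockdown 3 (0.464 to 1.01 CPM) overlapped that of control 3 (0.305 to 0.806 CPM). The log2 fold change was 4.78 (SE 2.06, edgeR adjusted p = 0.981). Without control 3, the only control with reads, it was 9.96, a fitted value over controls all at 0. Against 3 counts over those controls TGM3 was at least 140-fold higher in knockdown. That bound leaves out the control reads and does not hold for the whole control group. Knockdown 4 held most of the TGM3 reads.

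TGM6 and TGM7 were both at 0 counts in all 4 control libraries. TGM6 had 36, 2, 1146 and 128 counts in knockdown 1 to 4, or 0.598, 0.0652, 31.4 and 3.51 CPM. The 2 counts of knockdown 2 are under the limit of 3 counts, and knockdown 3 held most of the reads. TGM7 had 30, 0, 14 and 327 counts in knockdown 1 to 4, or 0.498, 0, 0.384 and 8.96 CPM, with knockdown 4 far above the rest. Pooled over the libraries, TGM6 was at least 488-fold higher in knockdown than the limit of 3 counts over the control group, or at least 79.4-fold without knockdown 3. For TGM7 the bound was 138-fold, or 21.1-fold without knockdown 4. The filter on low counts left both out of the fit. Without that filter, in a fit of 46022 genes, the edgeR p was 0.00101 for TGM6 and 0.0025 for TGM7, and 0.773 adjusted for each; 2.6% of genes in that fit were higher in knockdown at an unadjusted p under 0.05. TGM6 was the only member whose groups did not overlap, by the 2 counts of knockdown 2; higher in knockdown without overlap were 0.795% of all rows with a count and 0.882% of the genes in the fit.

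**Figure D1:**
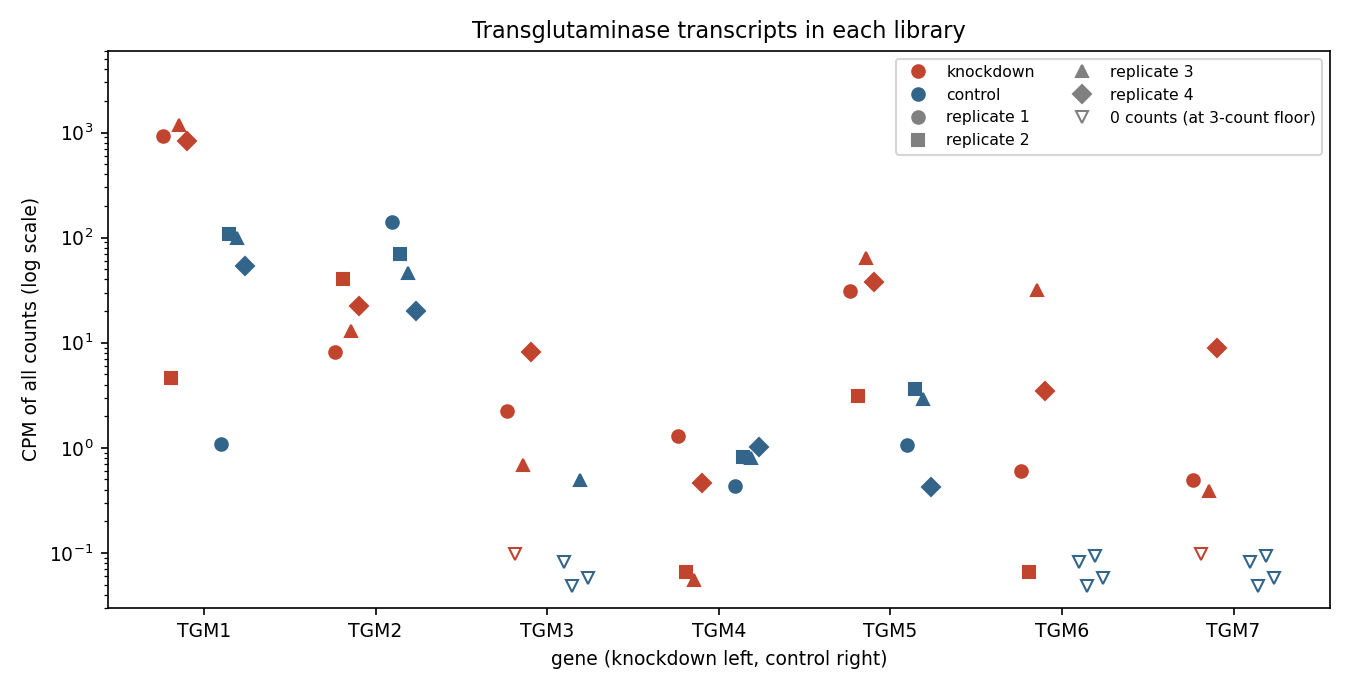
CPM of all counts (log axis) for the 7 transglutaminases, with knockdown libraries left and control libraries right for each gene, 1 point per library, shaped by replicate number; open triangles mark 0 counts, drawn at the 3-count limit of that library. TGM1 spans 4.63 to 1182 CPM in knockdown and 1.09 to 108.1 CPM in control, TGM2 spans 8.12 to 40.8 CPM in knockdown and 20.2 to 141.9 CPM in control, and TGM6 and TGM7 have no read in control.

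Both TGM6 and TGM7 have a neighbour from the family. TGM6 follows TGM3 on chromosome 20 (2380908 to 2432753, and 2296001 to 2341078, both on the plus strand) after a gap of 39829 bases. TGM7 (43276280 to 43302255, minus strand) lies 9422 bases from TGM5 on chromosome 15, and 15 of its exon bases overlap AC009852.1 on the other strand. The neighbours did not share their highest library. TGM6 and TGM5 were highest in knockdown 3, and TGM3 and TGM7 in knockdown 4. Measured as the root mean square difference of centred log2(CPM + 1) profiles over the 8 libraries, TGM3 and TGM7 were the closest pair of the family at 0.394, against 1.59 for TGM3 and TGM6 and 1.58 for TGM5 and TGM7. TGM3 and TGM7 were both near 0 in most libraries, which brings such profiles close. The bases before the starts of TGM3, TGM7 and TGM5 are shown because the first pair is the closest in profile and TGM5 is the chromosomal neighbour of TGM7. Each is the 250 bases before the start in RefSeq's promoters of GRCh38.p14, read 5′ to 3′ on the gene's strand at chr20:2295751-2296000 (plus), chr15:43302256-43302505 (minus) and chr15:43266929-43267178 (minus), with matches to 4 motifs in capitals.
TGM3: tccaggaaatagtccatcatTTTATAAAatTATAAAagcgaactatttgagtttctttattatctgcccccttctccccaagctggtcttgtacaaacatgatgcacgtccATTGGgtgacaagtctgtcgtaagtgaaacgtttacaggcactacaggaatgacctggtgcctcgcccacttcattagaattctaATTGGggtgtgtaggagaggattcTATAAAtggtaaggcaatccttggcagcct
TGM7: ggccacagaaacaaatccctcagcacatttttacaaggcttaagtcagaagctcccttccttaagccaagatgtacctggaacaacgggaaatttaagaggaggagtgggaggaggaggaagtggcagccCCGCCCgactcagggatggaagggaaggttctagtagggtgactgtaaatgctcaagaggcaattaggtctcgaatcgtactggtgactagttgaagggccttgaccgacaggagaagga
TGM5: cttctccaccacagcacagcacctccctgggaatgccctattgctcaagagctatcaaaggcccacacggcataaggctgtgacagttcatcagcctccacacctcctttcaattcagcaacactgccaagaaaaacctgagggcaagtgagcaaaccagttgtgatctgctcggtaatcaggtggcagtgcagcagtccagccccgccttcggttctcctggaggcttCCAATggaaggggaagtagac
The TATA box was searched as TATAAA, on both strands like the other motifs. The CCAAT box was searched by the letters of its name. The GC box was searched as GGGCGG, and the AP-1 site as TGANTCA. TGM3 held TATAAA with its first base at -30, counted back from -1 at the base before the start. It held further matches at -220 and -228, the last overlapping a reverse-strand match at -230, and reverse-strand CCAAT matches at -54 and -139. TGM5 held CCAAT at -21, and TGM7 held the reverse-strand GC box at -120. TATAAA stood in 10.7% of the 35116 promoters of the table, CCAAT in 32%, the GC box in 42.6% and TGANTCA in 6.57%; none of these 3 windows holds the letters of TGANTCA. RefSeq's table matched 4 of the 7 members, the other being TGM4.

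TGM4, the prostate enzyme, was at trace level and its groups overlapped. Its gene lies on chromosome 3 from 44874608 to 44914990, on the plus strand. It stood at 1.3, 0.0652, 0.0549 and 0.466 CPM in knockdown 1 to 4, against 0.435, 0.825, 0.806 and 1.02 CPM in control 1 to 4, from 2 to 78 counts a library. Knockdown 1 was the highest of the 8 and knockdown 2 and 3 the lowest. The log2 fold change was -0.43 (SE 0.935, edgeR adjusted p = 0.996), and ran from -1.88 without knockdown 1 to -0.06 without knockdown 2.

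TGM2, the tissue enzyme of the stroma, was fitted lower in knockdown, where TGM1, TGM3 and TGM5 were fitted higher. Its gene lies on chromosome 20 from 38127387 to 38166578, on the minus strand, and 394 of its exon bases overlap RPRD1B on the other strand, whose reads cannot be told apart where the strand setting of the counting is not given. TGM2 stood at 8.12, 40.8, 12.8 and 22.3 CPM in knockdown 1 to 4, against 141.9, 70.2, 45.9 and 20.2 CPM in control 1 to 4. Control 1, 2 and 3 lay above every knockdown library, and control 4 lay below knockdown 2 and 4. Knockdown averaged 21 ± 14.4 CPM and control 69.6 ± 52.4 CPM (SD, 4 libraries each). TGM2 had a fitted log2 fold change of -1.76 ± 0.684 (SE), with an edgeR adjusted p of 0.981 (0.0305 unadjusted). Without control 1 the change was -0.94 (edgeR adjusted p = 0.984). Control 1, where TGM2 was highest, was also the library with the most salivary gland transcripts, and knockdown 2, with the most TGM2 of its group, was the other gland-rich library.

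Markers of the cell types known to make TGM2 had reads in every library apart from CD68. The summed endothelial markers (6 genes, none at 0 in any library) ran from 136.8 to 500.4 CPM in knockdown and from 134 to 492.4 CPM in control. The endothelial sum was 203.2, 445.8, 136.8 and 500.4 CPM in knockdown 1 to 4, against 492.4, 395.9, 380.1 and 134 CPM in control 1 to 4. The 3 libraries with the least TGM2 had the 3 lowest sums, but the highest sum was in knockdown 4, where TGM2 was 22.3 CPM. Von Willebrand factor (VWF) ran from 85.8 to 294.4 CPM in knockdown and from 68.5 to 277.2 CPM in control, and PECAM1 from 32 to 156.3 CPM and from 40.2 to 139.3 CPM. The fibroblast markers (6 genes, none at 0), led by COL1A2 and COL3A1, were all fitted lower in knockdown. Their sum was 566.7, 694.6, 328.2 and 879.4 CPM in knockdown 1 to 4, against 737.6, 10713, 3090 and 1059 CPM in control 1 to 4. Control 1, with the most TGM2, had the lowest fibroblast sum of the controls, below that of knockdown 4. Smooth muscle markers (4 genes, none at 0), led by MYH11 and ACTA2, reached 1438 CPM in knockdown 2 and 1020 CPM in control 1, and 7.46 to 94.0 CPM in the other 6. Of the 6 macrophage and leukocyte markers, led by CSF1R and PTPRC, the sum ran from 31.8 to 122.9 CPM in knockdown and from 63.3 to 369.6 CPM in control. CD68 was at 0 in 5 of the 8 libraries, and the other 5 were fitted lower in knockdown. The part of these cell types in the TGM2 values was not tested.

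**Figure D2:**
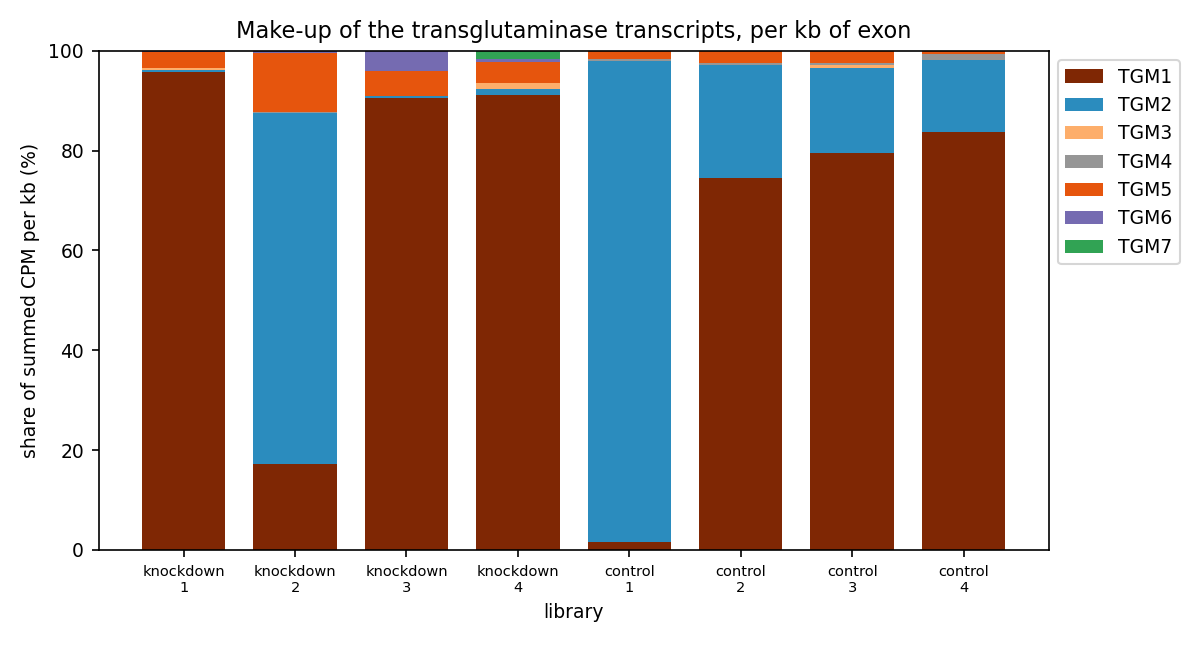
Share of the summed transglutaminase level (CPM per kb of exon, percent) taken by each member in each library, knockdown libraries left and control libraries right, 1 bar per library. TGM1 takes over 90% in knockdown 1, 3 and 4, and TGM2 takes 70.4% in knockdown 2 and 96.4% in control 1.

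To set members against one another, CPM was divided by the length of the merged exons of each gene in GENCODE v29, from 2292 bases for TGM6 to 8036 for TGM2. On this scale TGM1 led in 6 of 8 libraries, with 95.8%, 90.5% and 91.2% of the summed level in knockdown 1, 3 and 4 and 74.6%, 79.4% and 83.7% in control 2, 3 and 4. TGM2 led in the 2 gland-rich libraries, with 70.4% in knockdown 2 and 96.4% in control 1. The summed level of the 7 members was 259.6, 7.21, 349.5 and 246.4 CPM per kb in knockdown 1 to 4, against 18.3, 38.8, 33.3 and 17.3 CPM per kb in control 1 to 4. Knockdown 2 therefore had the lowest family total and the other knockdown libraries had the highest. In knockdown the mean levels per kb ran from TGM1 (197.7 ± 136.6 CPM per kb) through TGM5 (9.3 ± 6.83), TGM6 (3.88 ± 6.59), TGM2 (2.61 ± 1.8), TGM7 (1.06 ± 1.87) and TGM3 (1.03 ± 1.38) to TGM4 (0.0864 ± 0.107; SD, n = 4). Each range overlapped that of its neighbour in this order, although TGM1 lay above TGM5, and TGM5 above TGM6, in all 4 libraries. In control the order was TGM1 (17.5 ± 13.1 CPM per kb), TGM2 (8.66 ± 6.52), TGM5 (0.55 ± 0.413), TGM4 (0.142 ± 0.0448) and TGM3 (0.0461 ± 0.0921; SD, n = 4), with TGM6 and TGM7 at 0. In control the ranges of TGM2 and TGM5 were the neighbours that did not overlap.

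The balance of each envelope enzyme against TGM2 was compared within libraries, where scaling between libraries plays no part. The log2 ratio of TGM1 to TGM2, with 0.1 CPM added to each, was 6.82, -3.11, 6.52 and 5.23 in knockdown 1 to 4, against -6.90, 0.62, 1.10 and 1.41 in control 1 to 4. In knockdown 1, 3 and 4 the ratio was above every control library, and in knockdown 2 it was above control 1 alone. The group means differed by 4.80 (knockdown 3.86 ± 4.70, control -0.94 ± 3.99, SD, 4 libraries each). The interval of the difference that the exact permutation test did not reject ran from -4.52 to 13.7. For TGM5 the log2 ratio was 1.91, -3.68, 2.30 and 0.76 in knockdown 1 to 4, against -6.94, -4.25, -3.93 and -5.28 in control 1 to 4. The groups did not overlap, narrowly, by knockdown 2 against control 3. TGM2 itself was higher in control 1, 2 and 3 than in every knockdown library. The share of all genes whose ratio to TGM2 also separates the groups was not counted. The difference was 5.42, with an interval from 0.26 to 9.23. TGM3 had 0 counts in knockdown 2 and in control 1, 2 and 4, so the added 0.1 CPM and TGM2 set its ratio there. For TGM3 the log2 ratio was -1.81, -8.67, -4.04 and -1.44 in knockdown 1 to 4, against -10.5, -9.46, -6.27 and -7.67 in control 1 to 4, a difference of 4.48 with an interval from -2.40 to 9.03. The TGM3 difference was 6.14 with 0.01 CPM added and 2.86 with 1 CPM.

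The exact two-sided permutation p was 0.143 for TGM1, 0.0857 for TGM3 and 0.0286 for TGM5, the last being the smallest that the 70 assignments of 8 libraries can give. Adjusted over these 3 ratios (Benjamini-Hochberg), the exact permutation p-values were 0.143, 0.129 and 0.0857, so no ratio passed 0.05. Without knockdown 2 the differences were 7.13, 6.04 and 6.75 for TGM1, TGM3 and TGM5, and each passed (exact permutation p = 0.0286, and 0.0286 adjusted). That p is the smallest possible with 1 library left out. For TGM1 and TGM3, knockdown 2 was the only knockdown library within the control range, and TGM5 was already separated. Leaving it out therefore fixed this outcome, which is no further support. Without control 1 the TGM1 difference was 2.82 (exact permutation p = 0.371). Within the 4 libraries with under 1% muscle and gland genes (knockdown 1 and 3, control 2 and 4) the differences were 5.65, 5.64 and 6.87, each with knockdown above control, where the smallest possible exact p is 0.333.

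**Figure D3:**
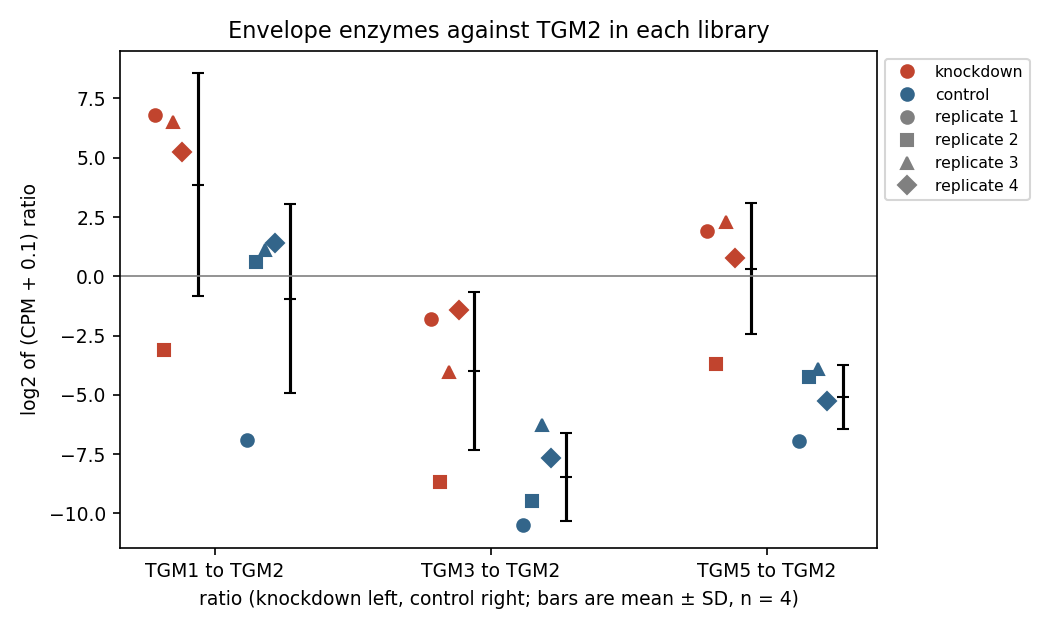
Log2 ratio of TGM1, TGM3 and TGM5 to TGM2 (CPM + 0.1 each) in each library, knockdown left and control right, shaped by replicate number; bars are mean ± SD, n = 4. Knockdown 2 (square) and control 1 (circle) are the low points for TGM1, at -3.11 and -6.90. For TGM5 the groups do not overlap, narrowly, with -3.68 in knockdown 2 and -3.93 in control 3.

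Across all genes, edgeR called 0 of 21192 at an adjusted p under 0.05 (0%), so 0 of the 5 members in the fit were called. At an unadjusted p under 0.05 stood 4 of the 5 members, with TGM1, TGM3 and TGM5 higher and TGM2 lower in knockdown, where the share over all genes was 4.78%. Members that the filter left out did not enter this count. limma-voom called 0 genes, with 876 at an unadjusted p under 0.05. DESeq2 called 127 of 20750 genes (0.612%), among them 1 member, TGM5. With each library left out in turn, log2 fold changes ran from 3.45 to 4.31 for TGM1, from 3.77 to 4.89 for TGM5, from 3.59 to 9.96 for TGM3 (the last over controls at 0) and from -2.16 to -0.94 for TGM2. In the 4 libraries with under 1% muscle and gland genes the edgeR log2 fold changes were 4.19 for TGM1, 5.07 for TGM5 and -1.61 for TGM2. The edgeR adjusted p-values were 0.173, 0.322 and 0.483. These libraries were not alike in muscle genes, which took 0.385% of counts in control 2. The share was 0.00416% in knockdown 1, 0.00404% in knockdown 3 and 0.00304% in control 4. Both controls of that subset were at 0 for TGM3, which was at least 62.8-fold higher in knockdown than 3 counts over them (edgeR adjusted p = 0.289).

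**Figure D4:**
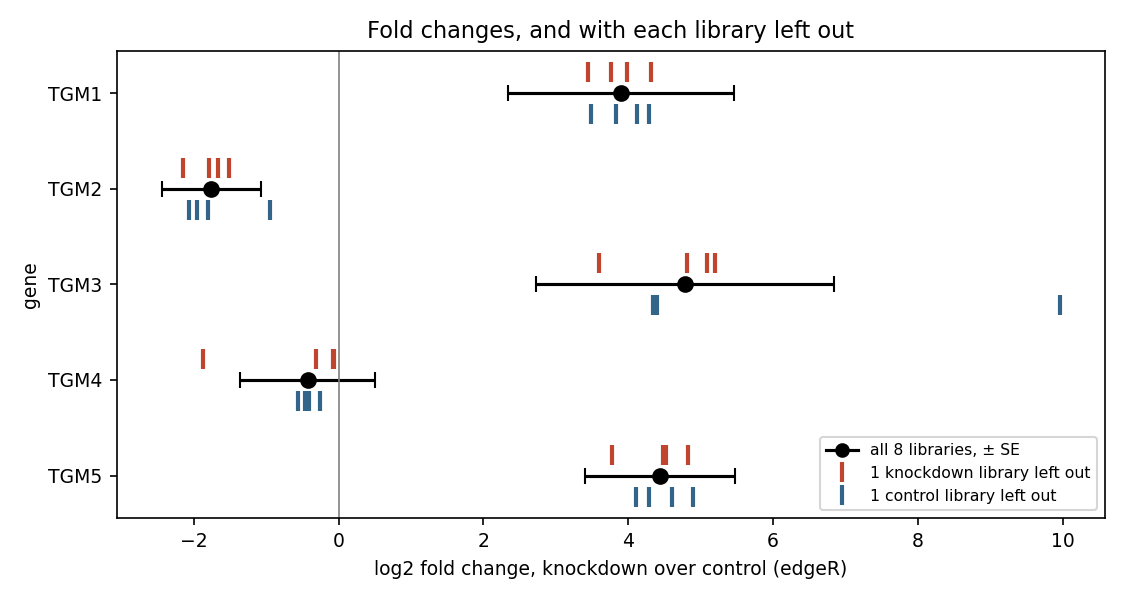
Log2 fold change, knockdown over control, of the 5 members in the edgeR fit (black points, bars ± SE, all 8 libraries), with short ticks for fits with 1 knockdown (upper) or 1 control (lower) library left out. TGM1, TGM3 and TGM5 stay above 0 and TGM2 and TGM4 below it in all of these fits; TGM3 lies at 9.96 without control 3, a fitted value over controls all at 0.

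Most substrates of the envelope enzymes were fitted higher in knockdown, but not all followed TGM1 library by library. The list held 22 cornified envelope proteins, of which 18 passed the filter, 17 fitted higher and 1 (S100A10) lower in knockdown. Of these, 0 were called by edgeR and 9 stood at an unadjusted p under 0.05, all higher in knockdown, where the share of all genes so placed was 2.9%. The median log2 fold change was 3.47, against -0.05 over all genes tested, of which 9913 were fitted higher. Without control 4 the median was 5.47, but the filter was run anew in that fit of 22765 genes. Genes of the list that the main fit left out could enter it, so these medians need not cover the same genes. The summed level was 37290, 1105, 27345 and 41238 CPM in knockdown 1 to 4, against 395.6, 8565, 6182 and 9387 CPM in control 1 to 4. The sums, whose largest term was DSP in every library but knockdown 4 (SPRR3), were lowest in control 1 and next lowest in knockdown 2, as TGM1 was. Among the exceptions, S100A10 was highest in control 2 at 553.8 CPM, and TCHH in control 4 (58.7 CPM) was above knockdown 1 (27.5 CPM) and knockdown 3 (22.8 CPM).

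Desmoplakin (DSP), the desmosomal plakin and the most abundant of the list, stood at 12928, 558.4, 9708 and 7613 CPM in knockdown 1 to 4, against 153.3, 4457, 2729 and 7047 CPM in control 1 to 4 (log2 fold change 1.46, SE 1.30, edgeR adjusted p = 0.981). Annexin A1 (ANXA1), a membrane-binding protein of the envelope, ran from 286 to 9311 CPM in knockdown and from 70.6 to 1959 CPM in control. SPRR3, the small proline-rich protein of mucosal epithelium, stood at 2712, 0.717, 404.9 and 10981 CPM in knockdown 1 to 4, against 1.58, 429.2, 420 and 10.3 CPM in control 1 to 4. The groups overlapped for each of the 3. In knockdown 3, ANXA1 (1227 CPM) and SPRR3 lay below control 2 and 3, unlike TGM1. The filter removed LORICRIN, SPRR2F, SPRR2G and RPTN, which had at most 0.155, 0.124, 0.259 and 0.192 CPM in control. SPRR2 genes have near-identical copies, so their separate counts are uncertain.

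Suprabasal markers differed in which knockdown library was highest. KRT4, a keratin of mucosal epithelium, stood at 11999, 4.79, 285 and 45264 CPM in knockdown 1 to 4, against 17.6, 289.6, 4730 and 404.6 CPM in control 1 to 4. Its partner KRT13 stood at 12808, 17.7, 1080 and 28768 CPM in knockdown 1 to 4, against 14.5, 4744, 5252 and 830.3 CPM in control 1 to 4. Both were highest in knockdown 4, where TGM3 and TGM7 were highest. KRT10, an epidermal suprabasal keratin set beside them after its values were seen, stood at 972.5, 30.5, 7933 and 56.7 CPM in knockdown 1 to 4, and at 5.93 to 31.3 CPM in control. It was highest in knockdown 3, as were TGM1, TGM5 and TGM6. Its partner KRT1 was instead highest in knockdown 1 (6424 CPM, against 3532 CPM in knockdown 3). Of the rest of the list, involucrin was highest in knockdown 3, and SPRR3, CRNN (2931 CPM) and MAL (1535 CPM) in knockdown 4. These are single libraries, and no test was made of them. The 8 suprabasal markers summed to 61.5 to 89853 CPM in knockdown and 41.6 to 10597 CPM in control, and the 6 basal markers, led by KRT14 and KRT5, to 1445 to 55195 CPM in knockdown and 679.9 to 31286 CPM in control, with the lowest sums of both lists in knockdown 2 and control 1 and no marker of either at 0. The part of the amount of squamous epithelium in the TGM values was not tested.

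**Figure D5:**
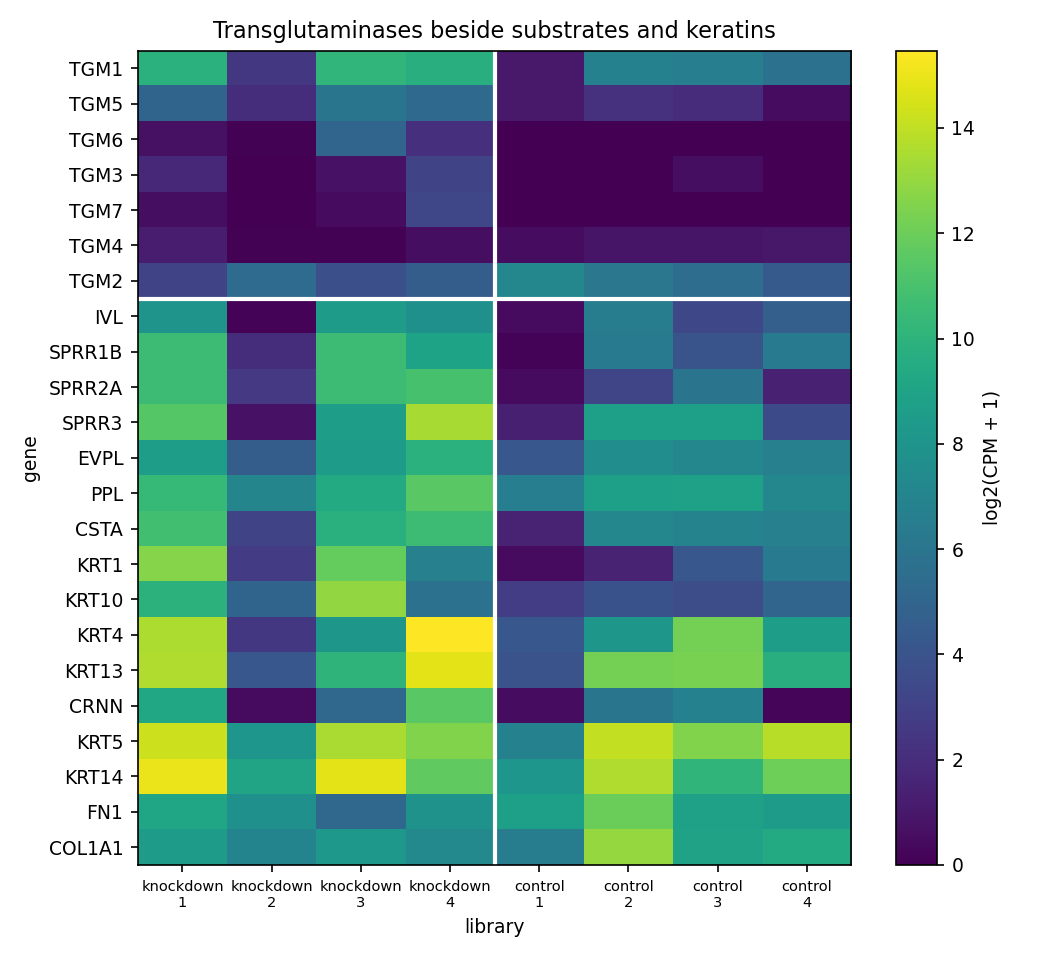
Log2(CPM + 1) of the 7 transglutaminases (above the white line) and of substrates, keratins, fibronectin and COL1A1 (below it) in each library, knockdown left of the vertical white line and control right. Knockdown 2 and control 1 lie below every other library for TGM1, IVL, SPRR1B, SPRR3, EVPL, PPL and CSTA. The same holds for KRT4, at 4.79 and 17.6 CPM, and KRT13, but not for SPRR2A and KRT1. PPL is still at 129.8 and 96.1 CPM in knockdown 2 and control 1.

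On a list of regulators of the envelope enzymes, 0 of 6 were called by edgeR and 0 stood at an unadjusted p under 0.05. In the fit 5 were higher and 1 lower in knockdown, with a median log2 fold change of 0.27. The median turned to -0.03 without control 3 and to -0.05 with library totals in place of TMM factors, and was 0.72 without control 2. Calpain 1 (CAPN1), a calcium-dependent protease, ran from 208.2 to 714.6 CPM in knockdown and from 168.6 to 682.3 CPM in control. Cathepsin D (CTSD) ran from 59.2 to 176.2 CPM in knockdown and from 55.9 to 209.9 CPM in control, and cathepsin L (CTSL), which can activate TGM3, from 8.83 to 61.9 CPM and from 26.5 to 91.2 CPM. Their log2 fold changes were 0.53 (SE 0.608), 0.25 (SE 0.539) and -0.42 (SE 0.732), with edgeR adjusted p of 0.987, 0.996 and 0.996.

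The 14 partners and substrates of TGM2 all passed the filter, and 9 were fitted lower and 5 higher in knockdown. Of these, 0 were called by edgeR, and 3 stood at an unadjusted p under 0.05, all lower, where 1.88% of all genes did so. The median log2 fold change was -0.93, and was -0.54 without control 2 and -0.55 without control 4. The endocytic receptor LRP1, which takes TGM2 from the cell surface, stood at 536.1, 363.6, 472.2 and 623.8 CPM in knockdown 1 to 4, against 498.7, 2229, 1124 and 978.9 CPM in control 1 to 4. Fibronectin (FN1), the matrix partner of TGM2, stood at 573.1, 219.2, 35.5 and 232 CPM in knockdown 1 to 4, against 418.2, 4031, 463.3 and 371.7 CPM in control 1 to 4. Integrin beta 1 (ITGB1), its co-receptor for fibronectin, ran from 96.4 to 409.1 CPM in knockdown and from 174.8 to 824.2 CPM in control. The log2 fold changes of LRP1, FN1 and ITGB1 were -1.03 (SE 0.544), -2.10 (SE 1.06) and -0.83 (SE 0.552), each with an edgeR adjusted p of 0.981. TGM2 was highest in control 1, while LRP1 and FN1 were highest in control 2.

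Of 3 further genes, F13A1 and EPB42 are relatives of the family and F13B is the partner of F13A1 and no transglutaminase. F13A1, the crosslinking subunit of clotting factor XIII, stood at 13.5, 82, 18.5 and 21.4 CPM in knockdown 1 to 4, against 29, 53.2, 88.3 and 7.4 CPM in control 1 to 4 (log2 fold change -0.28, SE 0.717, edgeR adjusted p = 0.996). The groups overlapped. EPB42, the inactive red cell relative that lies 11469 bases from TGM5, had at most 5 counts in any library, and F13B, the carrier subunit of factor XIII, at most 2.

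Genes with the nearest profiles were ranked by the same root mean square difference over the 8 libraries among 15724 genes. For TGM1, whose own profile had a root mean square of 3.19, the 5 nearest were CSTA (0.42), SERPINB13 (0.60), GRHL3 (0.76), NCCRP1 (0.77) and IVL (0.93). CSTA, the protease inhibitor cystatin A and itself an envelope protein, stood at 1752, 7.85, 897.9 and 1564 CPM in knockdown 1 to 4, against 1.74, 144.6, 119.3 and 103.7 CPM in control 1 to 4. Involucrin (IVL), the early envelope scaffold, stood at 253, 0.13, 369.4 and 213.2 CPM in knockdown 1 to 4, against 0.381, 94.1, 9.09 and 24.9 CPM in control 1 to 4. For TGM5 they were POF1B (0.49), CEACAM7 (0.54), THEM5 (0.56), ZNF365 (0.62) and SERPINB12 (0.65), beside an own value of 1.97. For TGM2 they were UCHL1 (0.39), SYNPO (0.40), ARHGEF40 (0.41), GLIS3 (0.42) and ARHGEF6 (0.42), beside an own value of 1.21. For TGM3 the nearest was ZBED2 at 0.29 (own value 1.07), and for TGM4 BANF1 at 0.15 (own value 0.39), both low values from profiles with little spread.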

How the data were processed

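Whole-transcript RNA of 8 libraries, 4 labelled COL1A1 knockdown and 4 labelled si-NC control, was measured as read counts per gene. The counts were deposited by the authors as a raw matrix of whole numbers; STAR, featureCounts, Subread and hg38 are named per the submitters' processing notes. Not given in the sources used here: tool versions, annotation and strand setting. Column headers read KO where the sample titles read KD. CPM was computed from column totals, and levels per kb from merged GENCODE v29 exons.

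Genes passing filterByExpr entered edgeR 4.0.16 (TMM, quasi-likelihood test, Benjamini-Hochberg over 21192 genes, threshold 0.05) in R 4.3.3. The SE is the absolute log2 fold change over the square root of F. DESeq2 1.42.0 and limma 3.58.1 (voom) were alternatives, with other filters and scalings, a replicate block and each library left out. Scripts were tested on simulated data. Ratios took 0.1 CPM as pseudocount and exact permutation tests written in Python 3.11.15. Wilson intervals came from scipy 1.17.1. Profile candidates passed the filter with a mean log2(CPM + 1) of at least 1. Wilson 95% intervals and the limit of 3 counts cover counting error only.

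Members and lists were chosen with earlier results of these data known. The text names all members, every called gene and the 3 most abundant of each pathway list, the other family genes, the 5 nearest profiles (for TGM3 and TGM4 the first), the 2 most abundant of each marker list, and COL1A1. KRT10, CD68, S100A10 and the substrates that the filter removed were named after their values were seen.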

Additional observations from a re-analysis of the deposited data

Results flagged for a closer look

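Of 20 groups of 4 libraries checked, 6 held a library far from the other 3. The rule flags about 1 group in 20 by chance only where values are independent and normally distributed. These groups share libraries and hold skewed values, so the count cannot be set against that rate.

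In knockdown, TGM6 reached 31.4 CPM in knockdown 3, where the next library had 3.51 CPM. TGM7 reached 8.96 CPM in knockdown 4, where the next had 0.498 CPM. The log2 ratio of TGM1 to TGM2 was -3.11 in knockdown 2, below the other 3 knockdown libraries, the next of which was at 5.23.

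In control, TGM3 was at 0.496 CPM in control 3 and at 0 counts in the other 3 libraries, a pattern that the rule flags at any level. COL1A1, the siRNA target, was at 8182 CPM in control 2, where the next control library had 689.5 CPM. The log2 ratio of TGM1 to TGM2 was -6.90 in control 1, where the next was 0.62. Knockdown 2 and control 1 were the libraries with 9.65% and 12.37% of counts in salivary gland genes, whose part in these ratios was not tested.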

How the results depend on the processing

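Over 163 alternative values of 12 results, 157 were counted as the same. For fold changes and ratios this meant the same sign and the same side of the threshold, and none turned sign. For list medians it meant a move smaller than the spread between libraries, and for genes called the same count. No main value passed the threshold, so this count puts no bound on the size of a shift. The spread was 2.42 for the substrates' median, which moved from 3.47 to 5.47 without control 4. The filter was run anew in each fit with a library left out, so this move can include a change in the genes covered. The regulators' median, 0.27 and not called, turned to -0.03 without control 3 and -0.05 with library totals. DESeq2 called 127 genes where edgeR called 0, and it called TGM5 with a log2 fold change of 4.46 (adjusted p = 0.00122). With each library left out, edgeR called from 0 to 1 genes, the 1 without knockdown 2. Over the same fits the ratio differences to TGM2 ran from 2.82 to 7.13 for TGM1, from 3.63 to 6.04 for TGM3 and from 4.76 to 6.75 for TGM5, each highest without knockdown 2. The TGM3 difference was 6.14 with a pseudocount of 0.01 CPM and 2.86 with 1 CPM. A filter of at least 1 CPM in 4 libraries left no value for TGM3 and TGM4. Library totals moved the median log2 fold change of all genes to -0.21. With the replicate number as a block, edgeR called 0 genes (352 at an unadjusted p under 0.05), with log2 fold changes of 4.07 for TGM1, -1.36 for TGM2, 6.23 for TGM3, -1.55 for TGM4 and 4.50 for TGM5, and the exact sign-flip p of the ratios was 0.25, 0.125 and 0.125 for TGM1, TGM3 and TGM5, where 0.125 is the smallest possible. Same-numbered libraries deviated in opposite directions (correlations from -0.656 to -0.372), so the numbers were not taken as pairing. The causes of these shifts were not tested. Counting error is widest for TGM3, TGM4, TGM6 and TGM7, each with 0 to 2 counts in some libraries.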
